A study of Mus musculus with 4 samples.

Results

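The genes described here are stem cell, progenitor and early thymocyte genes, listed as normally silent in double positive thymocytes. That is the stage of T cell development that carries both CD4 and CD8. A list of 36 such genes was chosen by gene symbol, and every probe set whose only platform symbol was one of them was taken. This gave 68 probe sets for 34 genes, out of 18193 genes with such a probe set. Ly6a and Vpreb2 had no probe set with a single symbol and were not analysed here. Double positive thymocytes of 4 mice were measured on Affymetrix arrays, 1 array per mouse. The Ikf/f CD4-Cre+ mice (2 arrays) carry floxed Ikaros (Ikzf1) alleles and a CD4-Cre transgene, and the Ikf/f CD4-Cre- mice (2 arrays) carry the floxed alleles without Cre. Below they are called Cre+ and Cre-. The Cd4 regulatory elements drive Cre only late in the double negative stage and at the double positive stage, so cells pass the progenitor stages before deletion. There was no Cre+ group without floxed alleles, so Cre itself and Ikaros loss cannot be told apart. The labels give neither the sorting of the cells nor the age of the mice.

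Early T cell progenitors enter the thymus with a stem cell programme of growth factor receptors (Kit, Flt3), Hox genes with their partner Meis1, and the regulators Tal1, Lyl1, Lmo2, Gata2, Spi1, Bcl11a and Mef2c. This programme is shut down as cells commit to the T lineage through the double negative stages, which are told apart by the surface proteins CD44 and CD25 (Il2ra). Genes such as Lmo1, Lmo2, Tal1, Lyl1 and Hhex are known as oncogenes of T cell leukaemia when they stay on. Ikaros is a zinc finger protein that binds DNA and represses or activates genes in lymphoid cells, and its loss in mice is known to lead to thymic lymphoma. The comparison of Cre+ with Cre- mice asks which of these genes differ in signal once Ikaros is deleted at this stage.

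None of the progenitor genes passed the test between Cre+ and Cre- thymocytes. Most read low: 44 of the 68 probe sets (64.7%) had a mean over the 4 arrays under 4.76 on the log2 scale. Single arrays of these 44 read up to 5.11. The level of 4.76 is the 40th percentile of all probe sets with 1 symbol, under which 40% of those probe sets fall by construction. For 16 of the 34 genes no probe set had a mean at or above this level. The 24 brighter probe sets, from 18 genes, entered a limma fit of 20967 probe sets, and 0 were called at an adjusted p under 0.05, where 0.868% of all probe sets tested were called (182, with 134 higher and 48 lower in Cre+ mice). At an unadjusted limma p under 0.05, 3 of the 24 were higher in Cre+ mice (12.5%, against 12.1% of all probe sets tested) and 3 were lower (12.5%, against 9.06%). The 6 probe sets belonged to Eng, Angpt1, Cd44 and Hoxa5. Both Cre+ arrays lay above both Cre- arrays for 6 of the 24 (25.0%, against 31.5% of all probe sets tested) and below them for 5 (20.8%, against 21.8%). All of these shares were near those of the whole table. The median difference of the 24 was 0.00, Cre+ minus Cre-, beside 0.04 for all probe sets tested. With 2 arrays per group an exact permutation test of a single probe set cannot give a p below 0.333, so the test rests on the spread that limma shares across probe sets.

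**Figure D1:**
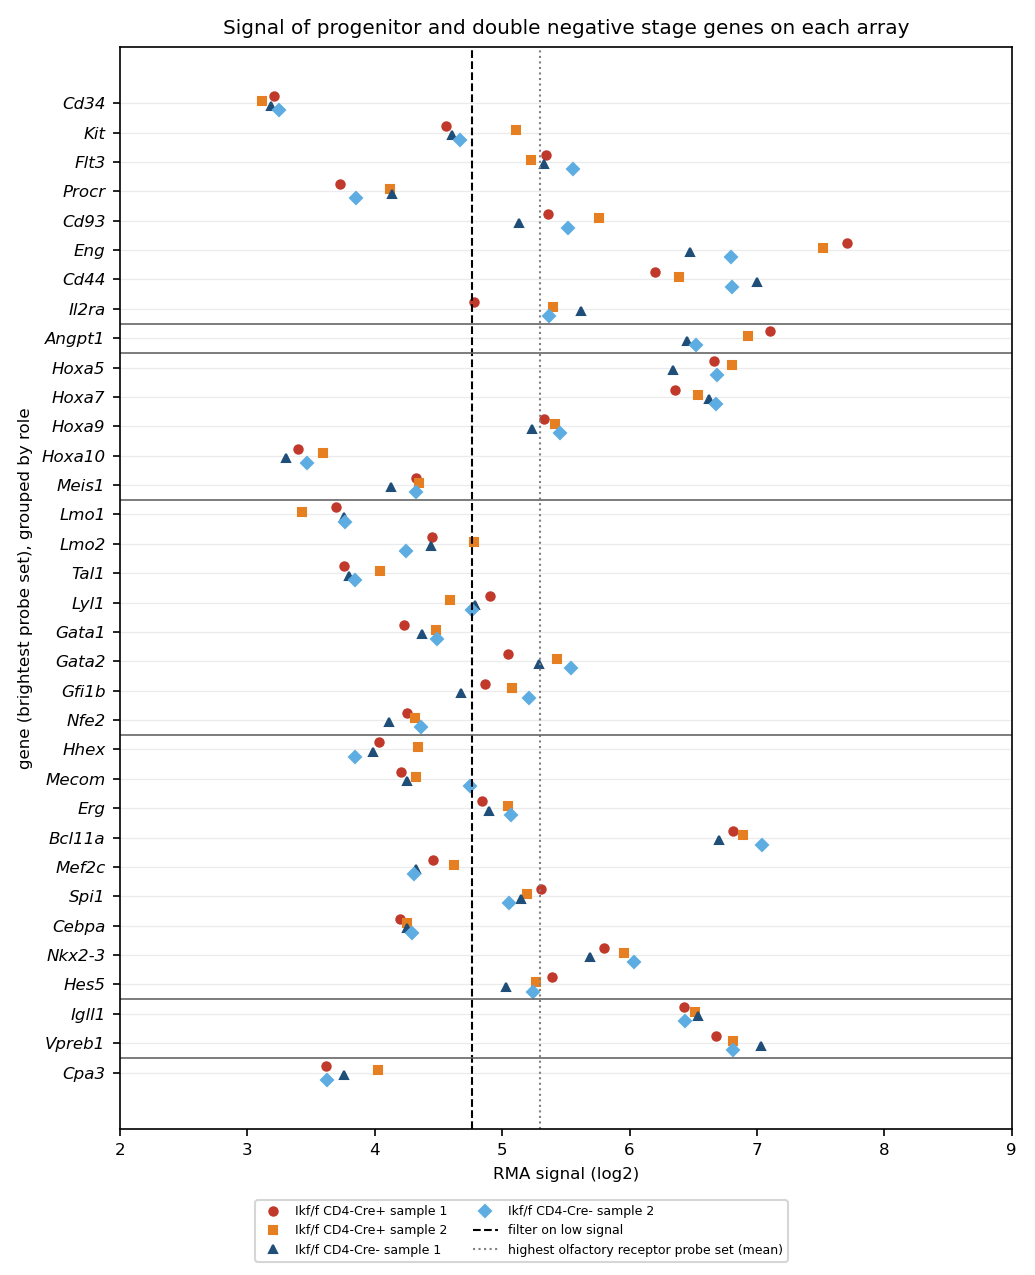
RMA signal (log2, horizontal axis) of the brightest probe set of each of the 34 genes on each of the 4 arrays, grouped by role, with the filter at 4.76 (dashed) and the highest mean of 43 olfactory receptor probe sets, 5.30 (dotted). For 16 genes the mean of the 4 points lies left of the dashed line, and for most genes the Cre+ and Cre- points intermingle.

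The targeted gene was lower in Cre+ mice. The brighter Ikzf1 probe set read 10.80 and 10.62 in Cre+ samples 1 and 2 and 12.40 and 12.08 in Cre- samples 1 and 2, a difference of −1.53 ± 0.16 (SE; limma adjusted p = 0.0346). A dimmer Ikzf1 probe set read 5.35 and 5.74 in Cre+ samples and 5.73 and 5.81 in Cre- samples and was not called. With any 1 array left out the first difference lay between −1.69 and −1.37 and no longer passed. Cre- sample 2 stood apart in sex-linked genes: Xist read 12.75 there and at most 5.37 on the other arrays, and the brightest probe set of the Y-linked gene Kdm5d read 2.86 there and at least 8.23 on the others. By these genes Cre- sample 2 read as female and the other arrays as male, so sex was not balanced between the groups. The part of sex in the differences was not tested. The granulocyte genes S100a8 and S100a9 were high in Cre+ sample 2 alone. There S100a8 read 8.38, against 4.52 in Cre+ sample 1 and 4.50 and 4.02 in Cre- samples 1 and 2. S100a9 read 7.14 there and at most 3.93 on the other arrays. Other granulocyte genes showed no rise of this size. Mpo read 5.10 in Cre+ sample 2 and at most 4.48 on the others. Elane read between 4.85 and 5.05 and Ctsg between 4.01 and 4.51 on the 4 arrays. Arrays correlated (Pearson, across probe sets) at 0.994 within Cre+, at 0.992 within Cre-, and at 0.984 to 0.987 across the groups.

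Olfactory receptor genes, which thymocytes are not known to use, give a second view of what a low signal is on these arrays. The means of their 43 probe sets ran from 2.48 to 5.30 with a median of 3.59, and their Cre+ minus Cre- differences ran from −0.16 to 0.24. Of the 68 progenitor probe sets 51 had a mean at or under 5.30, and 17 probe sets of 13 genes exceeded it; of all probe sets with 1 symbol 47.4% were at or under it. Probe sets bind with different strength, so this describes brightness and is no call that a gene is on or off.

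Among surface receptors, endoglin and CD44 showed the most separated arrays, in opposite directions. Eng encodes endoglin, a co-receptor for TGF-beta family ligands found on haematopoietic stem cells, endothelium, macrophages and stroma. The brighter of its probe sets read 7.71 and 7.52 in Cre+ samples 1 and 2 and 6.48 and 6.79 in Cre- samples 1 and 2. Its other probe set read 6.61 and 6.23 in Cre+ samples 1 and 2 and 5.55 and 5.50 in Cre- samples 1 and 2. In both probe sets each Cre+ array was above each Cre- array. The differences were 0.98 ± 0.16 (SE, n = 2 per group; a 1.97-fold ratio; 95% interval 0.58 to 1.38) and 0.89 ± 0.16 (1.86-fold; 0.49 to 1.30). Neither passed over all probe sets (limma adjusted p = 0.0608 and 0.0692). With any 1 array left out they lay between 0.82 and 1.14 and between 0.70 and 1.08. The call was close to its threshold: adjusted p-values over the alternatives ran from 0.0283 to 0.257 and from 0.0268 to 0.260.

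Cd44, the hyaluronan receptor that marks the earliest thymic progenitors and later memory T cells, was lower in Cre+ mice in both of its brighter probe sets. The first read 6.20 and 6.39 in Cre+ samples 1 and 2 and 7.00 and 6.81 in Cre- samples 1 and 2. The second read 5.25 and 5.12 in Cre+ samples 1 and 2 and 5.81 and 5.70 in Cre- samples 1 and 2. The groups did not overlap in either. Their differences, −0.61 ± 0.14 and −0.57 ± 0.13 (SE), missed the threshold, with limma adjusted p = 0.0986 and 0.0924. The remaining 2 Cd44 probe sets read between 2.72 and 3.50 on all arrays and differed by 0.00 and −0.07. In such bulk samples fewer cells of a type and less RNA per cell cannot be told apart.

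The start regions shown are those of Eng and Cd44, the only progenitor genes with 2 probe sets at an unadjusted limma p under 0.05. Both are on mouse chromosome 2 in RefSeq's annotation of GRCm38.p6, and each window holds 250 bases before and 50 after the start, 5′ to 3′ on the gene's strand. Capitals mark the letters TGGGAA, a core sequence that Ikaros family proteins are known to bind, or its reverse complement TTCCCA. The first window is chr2:32646345-32646644 (plus strand) and the second chr2:102901616-102901915 (minus strand).
Eng: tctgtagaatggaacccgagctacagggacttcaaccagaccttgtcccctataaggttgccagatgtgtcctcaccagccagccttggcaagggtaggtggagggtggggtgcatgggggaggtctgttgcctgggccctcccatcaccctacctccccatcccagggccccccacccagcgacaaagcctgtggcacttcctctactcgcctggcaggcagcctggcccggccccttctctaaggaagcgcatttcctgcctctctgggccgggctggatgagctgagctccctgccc
Cd44: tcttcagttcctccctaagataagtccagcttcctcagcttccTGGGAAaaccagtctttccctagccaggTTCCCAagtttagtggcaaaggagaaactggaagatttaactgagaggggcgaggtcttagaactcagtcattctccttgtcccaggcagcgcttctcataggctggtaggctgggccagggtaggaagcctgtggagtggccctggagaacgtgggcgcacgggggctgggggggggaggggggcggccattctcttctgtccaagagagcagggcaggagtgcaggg
The Eng window holds no match and the Cd44 window holds 2, which begin 207 and 179 bases before the start. Of 39 windows found for 29 of the measured progenitor genes, 10 (25.6%) held the letters, beside 25.6% of all 32851 windows. A match is a description of the letters and not evidence of binding.

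The other receptors showed no separation of the groups in their brightest probe set. Flt3, the receptor of a cytokine of early progenitors, read 5.34 and 5.22 in Cre+ samples 1 and 2 and 5.33 and 5.56 in Cre- samples 1 and 2 (difference −0.16, 95% interval −0.51 to 0.18). Il2ra, the CD25 chain that marks the middle double negative stages, read 4.78 and 5.40 in Cre+ samples and 5.62 and 5.37 in Cre- samples in its brighter probe set. The low reading was Cre+ sample 1 alone, and the other Il2ra probe set read 5.01 and 5.25 in Cre+ samples and 5.12 and 5.04 in Cre- samples. Kit, the stem cell factor receptor, had 2 probe sets under the filter. Its brighter one read 5.11 in Cre+ sample 2, above 4.56 in Cre+ sample 1 and 4.61 and 4.67 in Cre- samples 1 and 2. Cd34, a sialomucin of stem cells, read 3.21 and 3.11 in Cre+ samples and 3.18 and 3.25 in Cre- samples, within the range of the olfactory receptor probe sets. Procr, the protein C receptor of stem cells and endothelium, read between 3.72 and 4.13 on the 4 arrays. Cd93, a lectin-like glycoprotein of early B cell progenitors, stem cells and endothelium, had 5 probe sets whose differences ran from −0.18 to 0.23.

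**Figure D2:**
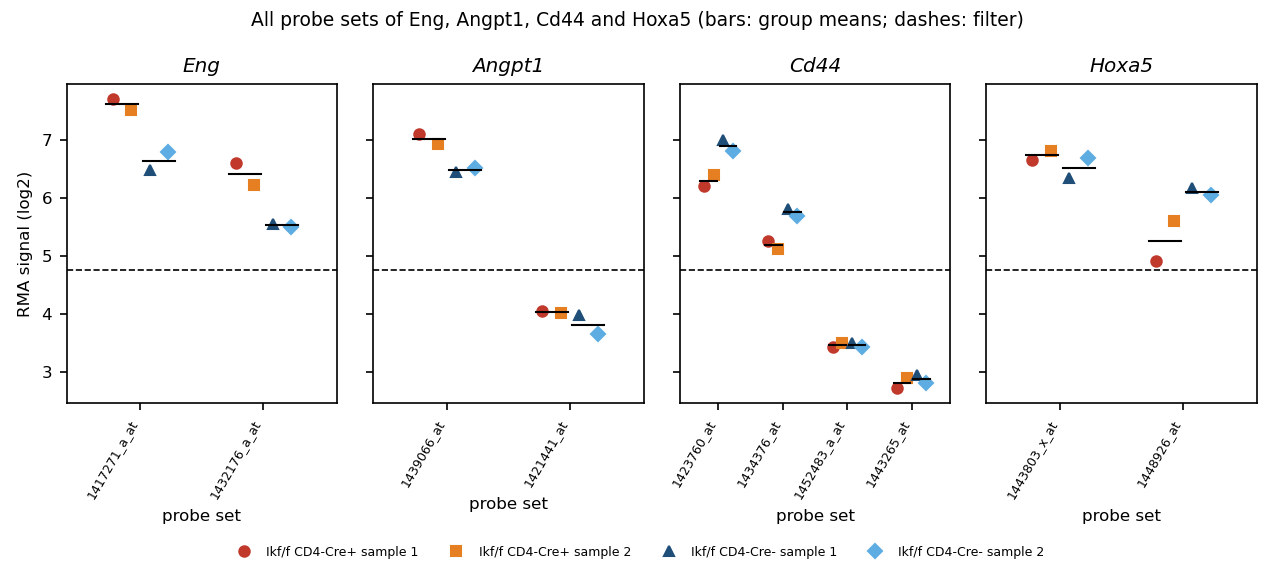
RMA signal (log2, vertical axis) of every probe set of Eng, Angpt1, Cd44 and Hoxa5 on each array, with group means as bars and the filter of 4.76 as a dashed line. Both Eng probe sets are higher and the 2 brighter Cd44 probe sets lower on both Cre+ arrays, while the 2 Hoxa5 probe sets differ in opposite directions.

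Angpt1, which encodes angiopoietin 1, a secreted ligand of the receptor Tie2 on stem cells and endothelium, was the only ligand on the list. The brighter of 2 probe sets read 7.10 and 6.93 in Cre+ samples 1 and 2 and 6.45 and 6.52 in Cre- samples 1 and 2. Both Cre+ arrays were above both Cre- arrays, with a difference of 0.53 ± 0.13 (SE; 1.45-fold; limma adjusted p = 0.104). Its dim probe set read 4.05 and 4.02 in Cre+ samples and 3.98 and 3.65 in Cre- samples. Tek, the gene of Tie2, lay under the filter at 3.08 and 3.23 in Cre+ samples and 3.05 and 3.34 in Cre- samples.

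Of the HoxA genes, which set the identity of stem and progenitor cells and are held on in some leukaemias, Hoxa5 had probe sets that disagreed. One read 4.92 and 5.60 in Cre+ samples 1 and 2 and 6.17 and 6.04 in Cre- samples 1 and 2. Both Cre+ arrays were below both Cre- arrays, with a difference of −0.85 ± 0.24 (SE; limma adjusted p = 0.132), and the difference was −0.51 without Cre+ sample 1 and −1.18 without Cre+ sample 2. The other, brighter probe set, of a kind that can bind several transcripts, read 6.66 and 6.81 in Cre+ samples and 6.34 and 6.69 in Cre- samples, a difference of 0.22. Hoxa7 read 6.36 and 6.54 in Cre+ samples and 6.63 and 6.68 in Cre- samples. This difference of −0.21 had a 95% interval of −0.53 to 0.12 (limma adjusted p = 0.426). The brighter Hoxa9 probe set read 5.33 and 5.42 in Cre+ samples and 5.23 and 5.45 in Cre- samples. Hoxa10 and Meis1, the cofactor of Hox proteins on DNA, had 5 probe sets, all under the filter, that differed by −0.14 to 0.11. The brightest of Meis1 read 4.33 and 4.35 in Cre+ samples and 4.13 and 4.32 in Cre- samples, so that the groups did not overlap.

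The complex around the SCL protein (Tal1), its relative Lyl1, the LIM-only adaptors Lmo1 and Lmo2 and the GATA factors builds the transcription network of blood stem cells. Of its 9 probe sets here, including Gfi1b, a repressor of the erythroid and megakaryocyte lineages, and Nfe2, a bZIP factor of the same lineages, 2 passed the filter. Gata2 read 5.04 and 5.43 in Cre+ samples and 5.29 and 5.54 in Cre- samples in its brighter probe set, and Gfi1b read 4.87 and 5.08 in Cre+ samples and 4.67 and 5.21 in Cre- samples. In both the groups overlapped. Lmo2 read 4.45 and 4.78 in Cre+ samples and 4.44 and 4.24 in Cre- samples, a difference of 0.27 in which Cre+ sample 1 lay barely above Cre- sample 1. Lmo1 read 3.70 and 3.43 in Cre+ samples and 3.76 and 3.76 in Cre- samples. Tal1 was between 3.76 and 4.04, Gata1 between 4.23 and 4.49 and Nfe2 between 4.11 and 4.36 on the 4 arrays. Lyl1 had a mean of 4.76, just under the filter, and differed by −0.03.

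Of the remaining transcription factors 5 had a probe set past the filter, and none of these passed the test. Spi1 encodes PU.1, a factor of myeloid cells and early T cell progenitors that is shut off at T lineage commitment. It read 5.30 and 5.20 in Cre+ samples and 5.15 and 5.05 in Cre- samples, a difference of 0.15 with a 95% interval of −0.15 to 0.46 (limma adjusted p = 0.533). Hes5, a bHLH repressor induced by Notch signals in several tissues, read 5.39 and 5.27 in Cre+ samples and 5.03 and 5.25 in Cre- samples. In both genes the groups did not overlap, but their nearest arrays lay close together. The Hes5 difference of 0.19 had a 95% interval of −0.15 to 0.53 (limma adjusted p = 0.487). Bcl11a, a zinc finger protein of B cells, dendritic cells and progenitors, had 7 probe sets. Its brightest read 6.81 and 6.89 in Cre+ samples and 6.70 and 7.04 in Cre- samples, and is also of a kind that can bind several transcripts. The other 6 lay under the filter. One of them was higher on both Cre+ arrays, at 3.25 and 3.26 in Cre+ samples and 2.95 and 2.71 in Cre- samples. Nkx2-3, a homeobox gene of spleen and gut vessels that is known to be switched on in some T cell leukaemias, read 5.80 and 5.95 in Cre+ samples and 5.69 and 6.03 in Cre- samples. Erg, an ETS factor of stem cells and endothelium, differed by −0.04 in its brighter probe set. Hhex, a homeobox factor of progenitors, lay under the filter at 4.03 and 4.34 in Cre+ samples and 3.98 and 3.84 in Cre- samples, a difference of 0.27 with no overlap of the groups. Cebpa, a myeloid factor, read between 4.20 and 4.29 on the 4 arrays. The 3 probe sets of Mecom, the stem cell gene that encodes EVI1, were all under the filter and differed by −0.23 to 0.15.

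Mef2c, a MADS box factor of myeloid and lymphoid progenitors, had 5 dim probe sets that all separated the arrays. Of these, 4 were higher on both Cre+ arrays, by 0.19 to 0.38, and 1 was lower on both, with a difference of −0.11. Such separation was common: of all probe sets tested 31.5% were higher on both Cre+ arrays and 21.8% lower. Those shares cover probe sets past the filter, and none was computed for dim ones such as these. The brightest Mef2c probe set read 4.45 and 4.62 in Cre+ samples and 4.32 and 4.31 in Cre- samples. The one with the largest difference read 3.81 and 4.14 in Cre+ samples 1 and 2 and 3.62 and 3.57 in Cre- samples 1 and 2. All 5 had means between 3.19 and 4.43, and they measure 1 transcript pool, so they are not replicates. When all 34945 probe sets with 1 symbol were tested without a filter, 0 of the 68 progenitor probe sets passed in limma, where 0.687% of all probe sets were called, and the lowest adjusted p was 0.0596 (Eng). In that fit 8 of the 68 had an unadjusted p under 0.05 (11.8%, against 16% of all 34945 probe sets). Of these, 2 lay under the filter, the Mef2c probe set above (adjusted p = 0.289) and 1 of Bcl11a (0.42; adjusted p = 0.193).

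**Figure D3:**
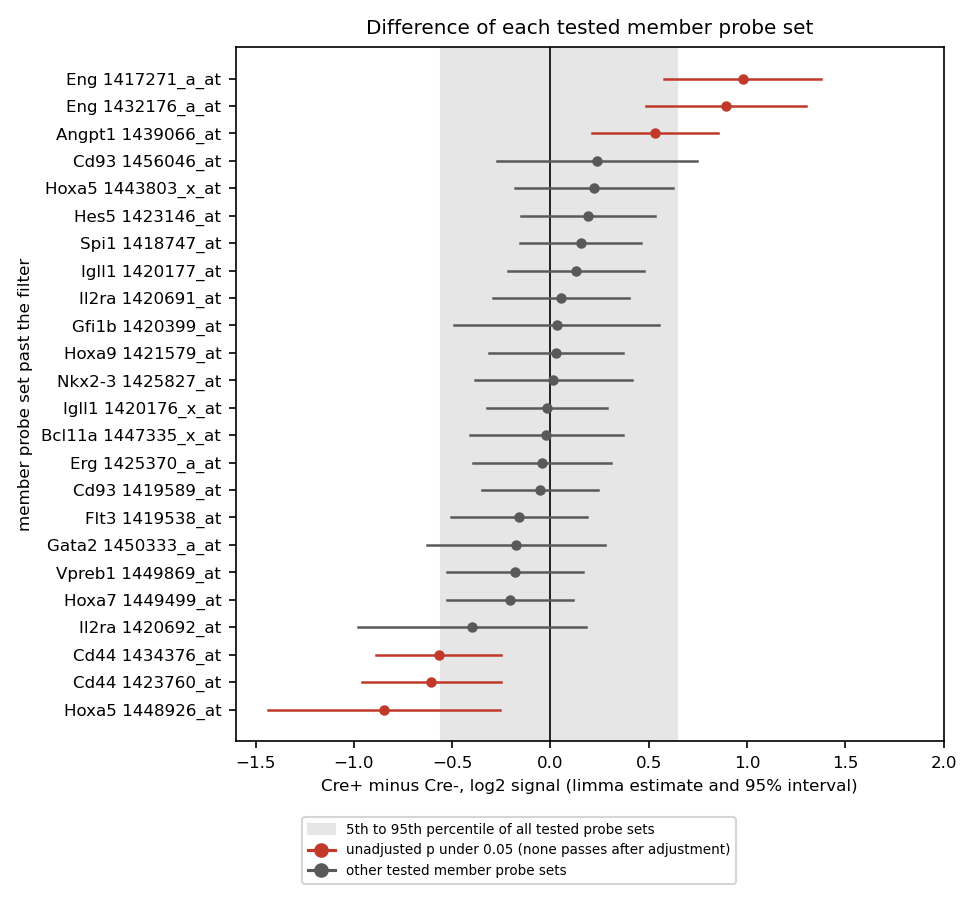
Difference in log2 signal, Cre+ minus Cre- (horizontal axis), of the 24 progenitor probe sets past the filter, with the 95% interval of limma, and the span between the 5th and 95th percentile of all 20967 probe sets tested, −0.56 to 0.64 (grey). The 18 grey intervals include 0, and the 6 red ones, with an unadjusted p under 0.05, do not. Both Eng probe sets lie above the grey span and Hoxa5 and both Cd44 probe sets lie below it.

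The surrogate light chain genes Igll1 and Vpreb1 pair with the heavy chain in pre-B cells, and their transcripts are also known from early thymocytes. Vpreb1 read 6.68 and 6.81 in Cre+ samples and 7.03 and 6.81 in Cre- samples, a difference of −0.18 with a 95% interval of −0.53 to 0.17 (limma adjusted p = 0.520). Cre+ sample 2 and Cre- sample 2 were nearly equal. Vpreb1 and Vpreb2 are close copies, so the Vpreb1 signal may include both. Igll1 read 6.42 and 6.51 in Cre+ samples and 6.53 and 6.43 in Cre- samples in its brighter probe set, a difference of −0.02. Its other probe set read 4.96 and 5.21 in Cre+ samples and 4.96 and 4.95 in Cre- samples. Cpa3, the carboxypeptidase of mast cells and of early progenitors, read 3.61 and 4.02 in Cre+ samples and 3.75 and 3.63 in Cre- samples.

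Over the 18 tested probe sets with an unadjusted p of at least 0.05, differences ran from −0.40 to 0.23 and the 95% intervals from −0.98 (Il2ra) to 0.74 (Cd93). The smallest difference called anywhere in the table was 0.88 in size. Of all 68 progenitor probe sets 59 differed by at most 0.3 in either direction, with a range from −0.85 (Hoxa5) to 0.98 (Eng). On the mean of the 34 genes, each by its brightest probe set, the arrays read 5.03 and 5.17 in Cre+ samples 1 and 2 and 5.01 and 5.11 in Cre- samples 1 and 2, so that the groups overlapped.

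Other genes of the same stages were read beside them. Of 26 further stem and progenitor genes 19 had probe sets past the filter, and of their 40 probe sets 0 passed in limma, with 12 higher and 3 lower at an unadjusted p under 0.05. Of all probe sets tested, 12.1% were higher and 9.06% lower at that p. Both Cre+ arrays lay above both Cre- arrays for 15 of the 40 and below them for 8. The shares of all probe sets tested were 31.5% and 21.8%. The median difference of the 40 was 0.01. The smallest adjusted p-values belonged to the Polycomb gene Bmi1 (difference 0.60; limma adjusted p = 0.0748), the HMG box gene Sox4 (0.74; adjusted p = 0.0804) and the receptor gene Slamf1 (−0.76; adjusted p = 0.0848). These were single probe sets: the brightest probe set differed by 0.32 for Bmi1, by −0.10 for Sox4 and by −0.45 for Slamf1. In their brightest probe sets Fgd5 differed by 1.38 and Prdm16 by 1.26, with both Cre+ arrays above both Cre- arrays. Neither was called (limma adjusted p = 0.116 and 0.196). Other tested Prdm16 probe sets differed by −0.06 to 0.87. Of 33 probe sets of 17 further genes of the double negative stage, 2 rose and 0 fell, where 0.868% of all probe sets tested were called. Their median difference was 0.12, beside 0.04 over all probe sets tested. At an unadjusted p under 0.05, 9 were higher and 3 lower, where 12.1% and 9.06% of all probe sets tested were. Both Cre+ arrays lay above both Cre- arrays for 13 and below them for 6, where 31.5% and 21.8% of all were. The mean of the 17 genes was 9.17 and 9.17 in Cre+ samples and 8.74 and 8.73 in Cre- samples. The probe sets that rose were of Dtx3l, an E3 ligase of the Deltex family (1.37 ± 0.15, SE; limma adjusted p = 0.0370), and the interleukin 7 receptor gene Il7r (1.12 ± 0.13; limma adjusted p = 0.0374). The brightest Dtx3l probe set differed by 0.69 and was not called (adjusted p = 0.0825). Il7r read 5.74 and 5.93 in Cre+ samples 1 and 2 and 4.68 and 4.75 in Cre- samples 1 and 2. The pre-T cell receptor chain gene Ptcra had a difference of 1.16, the receptor gene Notch1 one of 1.10 and the Deltex gene Dtx1 one of 1.93. None of these passed in limma, with adjusted p-values of 0.0591, 0.0663 and 0.0931 in that order. A second Dtx1 probe set differed by −0.57. Probe sets of Tcf12 differed by −0.74 and −0.63, neither of them called, and its brightest differed by 0.08. In their brightest probe sets Dntt differed by 0.01, Bcl11b by −0.06, Gata3 by −0.12 and Cd3g by −0.19.

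Markers of the double positive stage were bright in both groups, as the label of the cells states. The mean of 9 such genes was 11.77 and 11.82 in Cre+ samples and 11.88 and 12.00 in Cre- samples. Of their 25 probe sets 2 fell, those of Themis, a thymocyte signalling adaptor (−1.12 ± 0.12, SE; limma adjusted p = 0.0351), and the chemokine receptor gene Ccr9 (−0.97 ± 0.12; adjusted p = 0.0410). Their brightest probe sets differed by −0.06 (Themis) and −0.18 (Ccr9). Further Ccr9 probe sets differed by −0.94, −0.91 and −0.91 and were not called (limma adjusted p = 0.117, 0.0585 and 0.0591 in that order). On both Cre+ arrays 18 of the 25 were lower than on both Cre- arrays, where 21.8% of all probe sets tested were. At an unadjusted p under 0.05, 8 of the 25 were lower and 0 higher, where 9.06% and 12.1% of all were.

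Several progenitor genes are also used by other cell types, so markers of those cells were read on the same arrays. Eng, Erg, Procr and Cd34 are endothelial genes too. The 9 endothelial markers had a mean of 4.61 and 4.65 in Cre+ samples and 4.55 and 4.60 in Cre- samples, and in limma 0 of 7 tested probe sets were called, with none under an unadjusted p of 0.05. The defining marker Cdh5 read between 3.19 and 3.45, under the filter. By brightest probe set 2 of the 9 genes were higher on both Cre+ arrays and 0 were lower on both. These were Plvap (0.35) and Cldn5 (0.29), both under the filter. Stromal markers, beside Eng and Angpt1, had a mean of 5.78 and 5.39 in Cre+ samples and 4.95 and 5.04 in Cre- samples. Of their 9 tested probe sets 2 rose, both of Pdgfrb, and Col1a2 read 11.55 and 8.01 in Cre+ samples and 5.18 and 5.33 in Cre- samples. Of the 9, 4 were higher and 0 lower at an unadjusted limma p under 0.05, where 12.1% and 9.06% of all probe sets tested were. Col1a1, Col3a1 and Pdgfra were at or under 3.96 on every array. By brightest probe set 2 of the 9 stromal genes, Col1a2 and Pdgfrb, were higher on both Cre+ arrays. The 1 that was lower on both was Dcn (−0.21). Sparc differed by −0.12, Vim by 0.12 and Lum by 0.05.

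Myeloid markers, beside Eng, Spi1 and Mef2c, had a mean of 4.95 and 5.55 in Cre+ samples and 4.62 and 4.62 in Cre- samples. Of 10 tested probe sets 2 rose, of Lyz2 and Csf1r, while the other 2 Csf1r probe sets, its brightest among them, differed by 0.19 and 0.20 and were not called. Of the 10, 3 were higher and 0 lower at an unadjusted limma p under 0.05, where 12.1% and 9.06% of all probe sets tested were. The brightest probe sets of 7 of the 15 genes were under the filter. By brightest probe set 7 of the 15 were higher on both Cre+ arrays and 0 were lower on both. Tyrobp differed by 0.82 and was not called, while Adgre1 differed by −0.03, Elane by 0.02, Cd14 by 0.03 and Fcer1g by 0.06. The myeloid mean in Cre+ sample 2 includes S100a8 at 8.38 and S100a9 at 7.14, which were high on that array alone. Dendritic cell markers, beside Flt3, Bcl11a and Mef2c, had a mean of 6.07 and 6.15 in Cre+ samples and 5.51 and 5.21 in Cre- samples, and 2 of 12 tested probe sets rose, of H2-Ab1 and H2-Aa, with a median of 0.86. Of these 12, 8 were higher and 0 lower at an unadjusted limma p under 0.05, where 12.1% and 9.06% of all probe sets tested were. In their brightest probe sets H2-Eb1 differed by 1.68, Irf8 by 1.08 and Itgax by 0.27, none of them called. Siglech, Xcr1, Ccr7 and Zbtb46 of this list differed by 0.01, −0.01, 0.04 and −0.14 in that order, and Xcr1 was under the filter. The 6 B cell markers, beside Igll1 and Vpreb1, had a mean of 5.20 and 5.26 in Cre+ samples and 5.05 and 5.10 in Cre- samples, with 0 of 3 tested probe sets called in limma and 1 higher at an unadjusted p under 0.05. The part of stromal, myeloid and dendritic cells in the readings of Eng, Angpt1, Spi1 and Mef2c was not tested. Mast cell markers, beside Cpa3 and Kit, had a mean of 4.26 and 4.30 in Cre+ samples and 4.12 and 4.40 in Cre- samples, with 0 of 2 called in limma and none under an unadjusted p of 0.05. For the lineages of Gata1, Gfi1b and Nfe2, 0 of 2 erythroid probe sets were called, with none under that unadjusted p. Of 4 megakaryocyte probe sets 1 rose, that of the integrin gene Itgb3 (difference 1.38, limma adjusted p = 0.0266). The median difference of the 4 was −0.09, and 2 of them were lower on both Cre+ arrays. Of 5 thymic epithelial probe sets 0 were called and 1 was higher at an unadjusted p under 0.05.

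**Figure D4:**
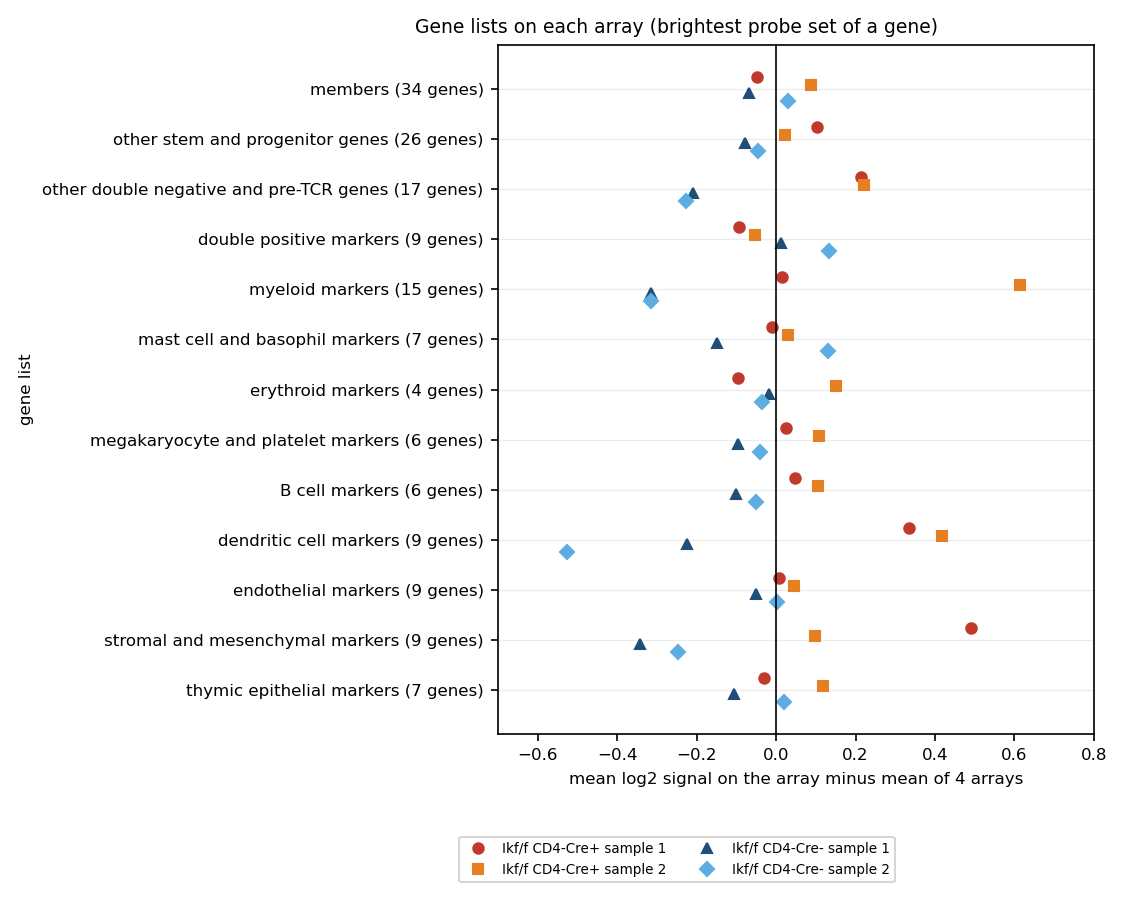
Mean log2 signal of each gene list on each array, as the deviation from its mean over the 4 arrays (horizontal axis), with 1 brightest probe set per gene. The progenitor genes described here (members, top row) overlap between Cre+ and Cre- arrays, while the other double negative, other stem, myeloid, dendritic cell, stromal, B cell, megakaryocyte and, barely, endothelial lists lie higher on both Cre+ arrays and the double positive markers lower. In the megakaryocyte list 1 gene, Itgb3, was higher on both Cre+ arrays and 2 were lower. In the stromal list 2 of 9 genes were higher on both Cre+ arrays and 1 was lower. In the other stem list 8 of 26 were higher and 5 lower, and in the other double negative list 10 of 17 and 1. The dendritic cell list had 5 of 9 higher and 1 lower, and the myeloid list 7 of 15 and 0. S100a8 and S100a9 of the myeloid list were high in Cre+ sample 2 alone.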

How the data were processed

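RNA of double positive thymocytes was labelled with biotin in a 2-cycle protocol, per the labels' protocols. The deposited values are log2 signals per probe set, made by the authors with RMA (background subtraction, normalization between arrays and summary of probes) (per the submitters' processing notes); its version is not stated. Base 2 was taken from the range of the values; no label gives it. No genome build is named with them. The labels list several amounts of starting RNA without tying them to arrays. Depth does not apply to arrays: the 2 arrays per group, separate mice by their labels, limit the precision.

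Of 45037 probe sets 34945 had 1 gene symbol in the platform annotation, 932 several and 9160 none; 34741 matched the RefSeq gene table and 0 symbols changed. Probe sets with 1 symbol and a mean at or above their 40th percentile (4.76) were fitted with limma 3.58.1 (lmFit and eBayes, R 4.3.3), two-sided, Cre+ minus Cre-, with Benjamini-Hochberg adjustment over all 20967 tested, and called at an adjusted p under 0.05. Residual and prior degrees of freedom were 2 and 3.55. It was tested on simulated data. Values on arrays, SE and 95% intervals are on the log2 scale. The members and lists were chosen with earlier results of these data known. All members were described. Full values were given for probe sets with an unadjusted p under 0.05 and brightest probe sets past the filter whose arrays did not overlap. For context lists the called genes and up to 3 others with the smallest p were named, and in some lists further genes beside them. Alternatives varied the filter, probe sets, scaling, prior, array weights, a block for the sample number, and each array in turn. Promoter windows came from RefSeq tables. Figures were drawn with matplotlib 3.10.9.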

Additional observations from a re-analysis of the deposited data

How the results depend on the processing

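Of the progenitor probe sets 0 were called in the reported limma analysis (6 at an unadjusted p under 0.05) and under every alternative run but a pair: eBayes with trend and robust called 1 (the brighter of Eng, limma adjusted p = 0.0484) and the replicate block called 2 (both Eng probe sets, adjusted p = 0.0283 and 0.0268). Over the 10 named progenitor probe sets, 122 of 125 values under the alternatives kept their direction and their side of the threshold, and these 3 Eng values were the others. With 1 value a gene, Eng had an adjusted p of 0.0554, and of 0.0469 when a gene's probe sets were averaged, 0.0497 without a filter and 0.0204 with the replicate block. The sample numbers are not shared animals; deviations of same-numbered samples correlated at 0.15 over probe sets, and with 2 pairs this does not establish pairing. The median difference of the tested progenitor probe sets lay between −0.076 and 0.075 when 1 array was left out. Calls over all probe sets numbered 182, against 105 with the filter at the 60th percentile, 302 with trend, 511 with trend and robust and 1475 with the replicate block, and between 4 and 48 with 1 array left out (7 without Cre+ sample 1, 48 without Cre+ sample 2, 21 without Cre- sample 1, 4 without Cre- sample 2). Calls over all genes numbered 160, against 821 with the replicate block and between 3 and 99 with 1 array left out. The causes were not tested beyond the fewer probe sets or arrays that these settings use. Dim probe sets limit what can be seen: a change of a gene under the filter may be understated by background.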
